A study of Mus musculus with 8 samples.

Results

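The 10 transcription factors described here are known from the oligodendrocyte lineage: Olig1, Olig2, Sox10, Sox8, Nkx6-2, Nkx2-2, Myrf, Zfp488, Tcf7l2 and St18. They were chosen by name, from 17001 genes listed for both genotypes of the series. Their levels were taken in the 15604 oligodendrocytes that the authors clustered and in 93 precursors, of 29631 cells in all. A cell was counted as a precursor when it held at least 3 unique molecular identifiers (UMIs) of Pdgfra and Cspg4 together and at least 1 of Ptprz1, which are genes of oligodendrocyte precursors. Oligodendrocytes and precursors were summed within each library, and a level is given as CPM, the UMIs of the gene per 1000000 UMIs of that sum. In the 4 libraries with at least 10 precursors, Olig1 and Olig2 were higher in precursors than in oligodendrocytes and Nkx6-2, Myrf and St18 lower. Olig1, Olig2, Zfp488 and Tcf7l2 were lower in the subclusters Oligo2a and Oligo2c than in Oligo2b. Neither comparison was set beside the share of all genes that differed in the same way. In the sum of all oligodendrocytes, 0 of the 10 passed the edgeR test between tissues or between genotypes when the mice a library came from were left out of the fit. That fit called 1% of all genes between wild-type tissues, 0.436% between Rag1-/- tissues and 0.888% between genotypes in white matter. Tcf7l2 had lower levels in white than in gray matter libraries in both genotypes, and by edgeR in this fit it passed within Oligo2 of Rag1-/- mice, where gray matter is 1 library, at an adjusted p of 0.0495 that was lost on leaving out any 1 of 6 libraries and in Oligo2b cells alone. Fits with the mice as a block kept 1 residual degree of freedom and called 10% of all genes between wild-type tissues. They also called Tcf7l2, except in Oligo1 of Rag1-/- mice, and within Oligo2 Olig2 in both genotypes and Zfp488 in wild-type mice. In Rag1-/- mice the block rests on 1 gray and 1 white matter library. DESeq2 called Tcf7l2 in all oligodendrocytes of Rag1-/- mice.

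Oligodendrocytes make the myelin of the brain and arise from precursors that keep dividing in the adult. The basic helix-loop-helix factors Olig1 and Olig2 specify the lineage, and Olig1 also acts in differentiation. Sox10 and its relative Sox8 are HMG-box factors, of which Sox10 directly activates myelin genes. Nkx2-2 and Nkx6-2 are homeodomain factors that act in the timing of differentiation and in mature myelinating cells. Myrf, a membrane-bound factor that cleaves itself to release a nuclear fragment, switches on myelin genes and keeps them on. Zfp488 is a zinc finger protein that works with Olig2. Tcf7l2 is a DNA-binding partner of β-catenin in Wnt signaling and is known from newly forming oligodendrocytes, and St18 is a zinc finger factor of the Myt family.

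The cells came from 24-month-old mice and were sequenced with the 10× Genomics 3′ chemistry as 8 libraries. Wild-type C57BL/6 mice (C57BL/6J in the methods of the study) gave 2 gray matter and 2 white matter libraries, and Rag1-/- mice, which lack mature T and B cells, gave 1 gray matter and 3 white matter libraries. Gray matter was frontal cortex, labelled prefrontal cortex, and white matter was corpus callosum together with optic tract and medial lemniscus. Tissue was pooled over mice, although the study's list of animals names 1 mouse each for Rag1-/- white matter libraries 2 and 3, and was dissociated in the presence of a transcription inhibitor and sorted for living cells. The labels call the Rag1-/- strain NOD.129S7(B6)-Rag-1tm1Mom/J, whereas the methods of the study place the allele on a C57BL/6J background. Genotype coincides with the experiment, the version of Cell Ranger, the upper limit on UMIs per cell and the list of genes kept, so that these cannot be told apart. By the methods, the version and the UMI limit also differed between the batches of Rag1-/- mice, whose gray matter library is from batch 1 and whose white matter libraries 2 and 3 are from batch 2, so that in part they cannot be told apart from tissue there either. UMIs of Rag1 itself amounted to 301 in all cells of Rag1-/- libraries and to 27 in those of wild-type libraries, and a count at the 3′ end does not check the deletion.

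Wild-type gray matter libraries 1 and 2 held 284 and 1119 oligodendrocytes, and wild-type white matter libraries 1 and 2 held 494 and 4106. The Rag1-/- gray matter library held 1055, and Rag1-/- white matter libraries 1, 2 and 3 held 3055, 1632 and 3859. Their summed depth ran from 2754274 to 44269555 UMIs per library, with a median of 8669 to 12925.5 UMIs per cell, so that the smallest wild-type gray matter library carries the largest counting error. Markers of oligodendrocytes summed to between 42556 and 50690 CPM in these cells. Across libraries, 92 cell barcodes occurred more than 1 time, 21 of them in the oligodendrocyte table. Of the oligodendrocytes of Rag1-/- white matter libraries 2 and 3, 222 are absent from the tables of all cell types used here.

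Olig1 and Olig2 lie next to each other on mouse chromosome 16 of build GRCm38, at chr16:91269772-91271933 and chr16:91225457-91228677 on the plus strand. The 41094 bases between them hold 1 annotated gene and 0 protein-coding genes. Sox10 is at chr15:79154908-79165240, Sox8 at chr17:25565892-25570686, Nkx6-2 at chr7:139579376-139582797, Nkx2-2 at chr2:147177546-147194243, Myrf at chr19:10208272-10240748 and Zfp488 at chr14:33967070-33978764, all on the minus strand. On the plus strand, Tcf7l2 spans chr19:55741820-55933654 and St18 chr1:6487231-6860940. Genes on the opposite strand overlap Olig1, Sox8, Nkx6-2 and Nkx2-2, and Ppnr overlaps Tcf7l2 on its own strand. Only whole gene spans were compared, and whether exons of Ppnr and Tcf7l2 overlap was not examined.

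The sequence just before the start of transcription is shown for Olig2, high in precursors, for Nkx6-2, low in them, and for Tcf7l2, the member with the lowest adjusted p between tissues in all oligodendrocytes. Each was read from the RefSeq promoter table of GRCm38.p6, is written 5′ to 3′ on the strand of the gene, and ends before the first annotated exon. Capitals mark matches to the motifs searched. For Olig2 the window is chr16:91225300-91225456 on the plus strand, for Nkx6-2 it is chr7:139582798-139583047 on the minus strand, and for Tcf7l2 it is chr19:55741560-55741796 on the plus strand.
Olig2: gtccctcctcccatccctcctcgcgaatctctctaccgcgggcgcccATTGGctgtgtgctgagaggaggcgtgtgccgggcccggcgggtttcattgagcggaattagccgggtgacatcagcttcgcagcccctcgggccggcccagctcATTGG
Nkx6-2: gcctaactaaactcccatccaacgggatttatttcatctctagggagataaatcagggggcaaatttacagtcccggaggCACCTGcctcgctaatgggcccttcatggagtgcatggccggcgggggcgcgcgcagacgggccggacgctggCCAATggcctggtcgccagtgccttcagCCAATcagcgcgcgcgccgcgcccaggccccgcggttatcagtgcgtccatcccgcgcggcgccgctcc
Tcf7l2: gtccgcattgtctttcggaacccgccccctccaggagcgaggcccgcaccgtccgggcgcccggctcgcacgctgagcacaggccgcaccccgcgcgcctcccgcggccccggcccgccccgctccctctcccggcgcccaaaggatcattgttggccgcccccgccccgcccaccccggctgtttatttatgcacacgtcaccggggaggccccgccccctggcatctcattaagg
The motifs, searched on both strands, were the E-box CANNTG bound by basic helix-loop-helix factors, CTTTGA for TCF factors, ACAAAG for SOX factors and the CCAAT box. CTTTGA and ACAAAG share letters on opposite strands but not a full match. The Olig2 window of 157 bases held 2 CCAAT boxes, as ATTGG, and 25.2% of 32851 mouse promoters hold a CCAAT box in a window of that length. In the 250 bases of Nkx6-2 there were 1 E-box and 2 CCAAT boxes, against shares of 66.22% and 33.85% of promoters with these motifs. No motif of the 4 matched in the 237 bases of Tcf7l2, where 64.33% of promoters hold an E-box, 13.03% CTTTGA, 15.64% ACAAAG and 32.74% a CCAAT box. These letters are a description of the windows.

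The precursors were few, at 0 and 2 cells in wild-type gray matter, 2 and 10 in wild-type white matter, 23 in Rag1-/- gray matter and 28, 8 and 20 in Rag1-/- white matter. The 11 precursor markers that the rule did not use summed to between 3708 and 12937 CPM in the libraries that held any precursors, against 60.9 to 77.6 CPM in oligodendrocytes. The same cells held 307 to 8018 CPM of oligodendrocyte markers, and 7 of the 93 held at least 20 UMIs of microglial markers. The 4 libraries with at least 10 precursors are described below, and no test between tissues or genotypes was run. These libraries fell into 3 groups, with 0 from wild-type gray matter, which left 1 residual degree of freedom where at least 3 were required for a test.

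Olig1 and Olig2 were higher in precursors than in oligodendrocytes of these 4 libraries. Olig1 stood at 2769 CPM in precursors of wild-type white matter library 2, at 2431 CPM in Rag1-/- gray matter and at 2552 and 2250 CPM in Rag1-/- white matter libraries 1 and 3. This was on average 3.32-fold the level in the oligodendrocytes of the same libraries, with a log2 difference of 1.73 ± 0.15 (SD, n = 4 libraries). For Olig2 the 4 values were 977, 898, 776 and 933 CPM, which was 6.24-fold the level in oligodendrocytes (log2 difference 2.64 ± 0.22, SD, n = 4). In every one of these libraries both factors were higher in precursors, and the precursor values did not overlap those of oligodendrocytes. The share of all genes without overlap between these cell types was not taken. The 2 precursors of wild-type gray matter library 2 held 742 CPM of Olig1 from 29 UMIs (95% Poisson interval 497 to 1065). This was below the 870 CPM in the oligodendrocytes of that library, but the interval includes it. Olig2 was at 307 CPM in these 2 cells against 156 CPM. Of these 2 cells, 1 held at least 20 UMIs of microglial markers, and without it 9785 of the 39108 UMIs of the sum remained. This sum also had the least of the precursor markers given above, at 3708 CPM.

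The SoxE genes differed less. Sox8 reached 276 ± 82 CPM in precursors (SD, n = 4) against 129 CPM in the oligodendrocytes of the same libraries, and was higher in 4 of 4. Sox10 was at 441 ± 16.4 CPM in precursors against 375 CPM, a log2 difference of 0.24 ± 0.15 (SD, n = 4). Thus Sox10 was at a similar level on both sides of differentiation, with the precursor value slightly above in 4 of 4 libraries.

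Nkx6-2, Myrf and St18 were low in precursors. Nkx6-2 was at 64.3 CPM in precursors and 618 CPM in oligodendrocytes (log2 difference −3.64 ± 1.43, SD, n = 4), Myrf at 41.0 and 296 CPM (−2.95 ± 0.50) and St18 at 22.8 and 195 CPM (−3.69 ± 1.67). All 3 were lower in precursors in 4 of 4 libraries. Their precursor sums rest on 1 to 18 UMIs per library, and the same cells held oligodendrocyte markers, whose part in these low values was not tested. Tcf7l2 was at 136, 115, 67.9 and 54.2 CPM in precursors, above the oligodendrocytes of each library (log2 difference 0.99 ± 0.67, SD, n = 4), on 10 to 24 UMIs. In Rag1-/- white matter libraries 1 and 3 the 95% Poisson intervals, 37.1 to 114 and 26.0 to 99.7 CPM, include the oligodendrocyte level. Nkx2-2 was at 83.5 ± 23.2 CPM in precursors and was higher there in 3 of 4 libraries. Zfp488 had 0 to 7 UMIs per precursor sum and was above the oligodendrocytes of the same library in 3 of 4. Over all 7 libraries with precursors its 23 UMIs gave 27.4 CPM (95% Poisson interval 17.4 to 41.2), against 7.74 CPM (7.33 to 8.18) in oligodendrocytes, with counting error only in the interval. Between precursors that just met the rule (3 cells with a sum of 3 UMIs) and cells just under it (4 cells with 2 UMIs and Ptprz1), Olig1 was at 768 and 2263 CPM and Olig2 at 461 and 1161 CPM, so that cells just under the rule also held these factors.

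**Figure D1:**
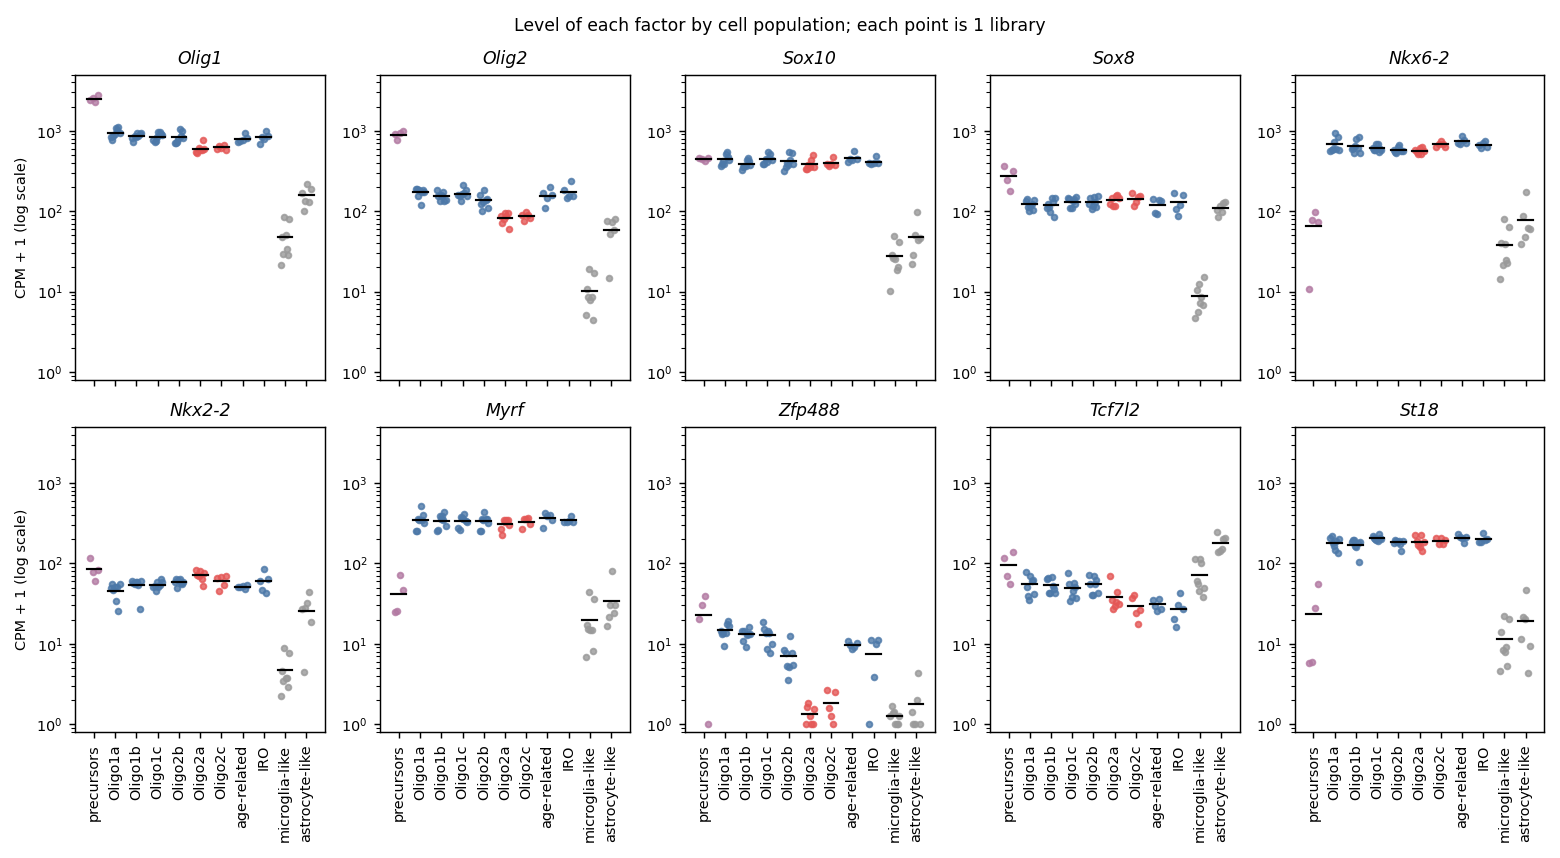
Level of each member, as CPM + 1 on a log axis, in precursors, in the oligodendrocyte clusters and in microglia-like and astrocyte-like cells. Each point is 1 library with at least 20 cells of the population (10 for precursors and IROs), and the line is the mean. Olig1 and Olig2 are highest in precursors and lowest among the oligodendrocyte clusters in Oligo2a and Oligo2c (red), Zfp488 is near 0 in Oligo2a and Oligo2c, and Tcf7l2 is highest in astrocyte-like cells.

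Expression was also followed outside the lineage, as a measure of background. Of the cells outside the oligodendrocyte table, those with at least 20 UMIs of 8 microglial genes (9718 cells) were taken as microglia-like, and others with at least 3 UMIs of Aqp4 and Gja1 together and 1 of Slc1a2 (1249 cells) as astrocyte-like. With cells thinned to 2000 UMIs, which left out 71 oligodendrocytes, 2 precursors, 646 microglia-like and 204 astrocyte-like cells as shallower, a UMI of Olig1 was seen in a median of 76.2% of oligodendrocytes per library and in 98.1% of precursors, but in 4.79% of microglia-like cells. For Olig2 these shares were 25.5%, 74.3% and 0.988%. Without thinning the medians for Olig1 were 98.8%, 100% and 12.8%, at median depths of 8669 to 12925.5 UMIs per oligodendrocyte, 7061.5 to 9560 per precursor and 5765 to 8804 per microglia-like cell. Sox8 was seen in 20.9% of thinned oligodendrocytes, 1.01% of microglia-like and 16.7% of astrocyte-like cells, at 127 CPM in oligodendrocytes and 108 CPM in astrocyte-like cells. Across the 8 libraries, astrocyte-like cells held 1285 to 16490 CPM of oligodendrocyte markers and microglia-like cells 1073 to 5746 CPM. The part of oligodendrocyte RNA in the member values of these cells was not tested. Tcf7l2 was above its oligodendrocyte share in both other types, with a UMI in 8.72% of thinned oligodendrocytes, 11.2% of microglia-like and 29.3% of astrocyte-like cells. Its level in oligodendrocytes was below that in microglia-like cells in 7 of 8 libraries. In microglia-like cells Tcf7l2 was itself at 113 and 100.3 CPM in wild-type gray matter, 37.5 and 49.0 CPM in wild-type white matter, 113 CPM in Rag1-/- gray matter and 59.7, 54.0 and 43.8 CPM in Rag1-/- white matter. Here too each gray matter library lay above all white matter libraries, a description for which no test was run.

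The oligodendrocytes were divided by the authors into Oligo1 (subclusters 1a, 1b and 1c), Oligo2 (2a, 2b and 2c), age-related oligodendrocytes and interferon-responsive oligodendrocytes (IROs). Since the clusters were formed on expression, levels between them are given as a description without a test. The share of all genes with the same direction in every library was not taken. Counts of libraries between clusters therefore do not set the members apart from other genes. Differences between clusters were taken within libraries on the scale of log2(CPM + 1).

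Within Oligo2, 4 members were lower in Oligo2a and Oligo2c than in Oligo2b. In Oligo2a the log2 difference from Oligo2b was −0.40 ± 0.10 for Olig1, −0.66 ± 0.20 for Olig2, −2.39 ± 0.84 for Zfp488 and −0.50 ± 0.22 for Tcf7l2 (SD, n = 7 libraries), with lower values in 7 of 7 libraries. In Oligo2c it was −0.36 ± 0.17, −0.47 ± 0.11, −1.76 ± 0.69 and −0.77 ± 0.67 (SD, n = 5), with lower values in 5 of 5. The other members did not share this: Sox10 differed by −0.05 ± 0.07 and Myrf by −0.05 ± 0.08 between Oligo2a and Oligo2b. Nkx6-2, by contrast, was higher in Oligo2c than in Oligo2b in 5 of 5 libraries (0.25 ± 0.08). Ordered by mean CPM over libraries, Olig2 ran from 180 in IROs, 170 in Oligo1a, 165 in Oligo1c and 155 in age-related oligodendrocytes through 152 in Oligo1b and 135 in Oligo2b to 86.0 in Oligo2c and 81.0 in Oligo2a. Only the step from Oligo2b to Oligo2c had the same direction in every library (5 of 5), while the remaining neighbours in that order changed places in at least 1 library.

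Zfp488 was almost absent from Oligo2a. Over all libraries, 11 of 23217938 UMIs of Oligo2a cells were Zfp488, or 0.47 CPM (95% Poisson interval 0.24 to 0.85), against 5.57 CPM in Oligo2b (4.77 to 6.46), 1.01 CPM in Oligo2c (0.54 to 1.73) and 10.9 CPM in Oligo1c (9.74 to 12.2). These intervals cover counting error only. In 4 Oligo2a libraries the count was 0, where 3 counts would have been 4.32 to 19.7 CPM, so that the deeper libraries carry the result. Those had 2 or 3 Zfp488 UMIs each, at 0.27 to 0.82 CPM. In microglia-like cells, which should lack the gene, Zfp488 was between 0 and 0.69 CPM.

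Between Oligo2 as a whole and Oligo1, Olig2 (−0.53 ± 0.32) and Olig1 (−0.25 ± 0.15) were lower in 7 of 8 libraries and Zfp488 (−1.61 ± 0.60) in 8 of 8. Nkx2-2 was higher in Oligo2 in 8 of 8 libraries (0.27 ± 0.10, SD, n = 8), and so was Sox8 (0.12 ± 0.12). Among the members, then, the lineage-specifying pair and Nkx2-2 went in opposite directions between these clusters.

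Age-related oligodendrocytes, present with 107 to 886 cells in each of the 5 white matter libraries, differed from Oligo1 in several members. Tcf7l2 was lower in 5 of 5 libraries, at 34.3, 28.8 and 24.7 CPM in Rag1-/- and 35.5 and 26.4 CPM in wild-type white matter (log2 difference −0.53 ± 0.10, SD, n = 5). Nkx6-2 was higher in 5 of 5, at 711, 688 and 862 CPM in Rag1-/- and 770 and 703 CPM in wild-type white matter (0.26 ± 0.09). Sox10 (0.13 ± 0.06), Myrf (0.13 ± 0.04) and St18 (0.15 ± 0.07) were each higher by a small amount in 5 of 5 libraries. Zfp488 (−0.35 ± 0.18) and Olig1 (−0.11 ± 0.07) were lower in 5 of 5, as they were in Oligo2a and Oligo2c against Oligo2b. The IROs, compared in the 4 libraries with at least 20 of them, held less Tcf7l2 (−0.67 ± 0.54) than Oligo1 in 4 of 4 on few cells, and more Nkx6-2 in 4 of 4 (0.11 ± 0.08). Sox10 in IROs was close to Oligo1, at −0.003 ± 0.06.

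Over 44 sums of at least 50 cells of a cluster in a library, Olig1 and Olig2 levels followed each other with a Pearson r of 0.81, and Sox10 followed Olig1 with 0.65 and Myrf with 0.63. Nkx2-2 ran against Olig1, with an r of −0.53. These are descriptions, since the sums of a library share its depth and preparation. The genes most like Olig2 over these sums, among 6140 genes of at least 20 CPM, were Timp2 (0.92), Phlda1 (0.91) and Serinc5 (0.89). Those most like Tcf7l2 were Glrb (0.86), Pantr1 (0.82) and Pex5l (0.82).

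In the sum of all oligodendrocytes, Olig1 lay between 680 and 991 CPM in the 8 libraries, Olig2 between 115 and 175 CPM and Sox10 between 333 and 509 CPM. Myrf ranged from 254 to 410 CPM, Nkx6-2 from 570 to 742 CPM, Nkx2-2 from 47.3 to 60.9 CPM, Sox8 from 108 to 144 CPM and St18 from 163 to 206 CPM. Tcf7l2 and Zfp488 had the widest relative spread, from 32.6 to 68.7 CPM and from 4.83 to 11.9 CPM.

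White and gray matter were compared first in wild-type mice. Olig1 was at 991 and 870 CPM in gray and 910 and 798 CPM in white matter, Olig2 at 175 and 156 against 159 and 131 CPM, and Sox10 at 509 and 458 against 503 and 409 CPM. The tissues overlapped for each of these 3, although white was below gray matter within each batch. Tcf7l2 was at 58.8 and 52.8 CPM in gray and at 44.3 and 33.5 CPM in white matter, with no overlap. By edgeR's quasi-likelihood test this was a log2 fold change of −0.52 (95% interval −0.95 to −0.09), 1.43-fold lower in white matter, at a Benjamini-Hochberg adjusted p of 0.391. Zfp488 did not overlap either, at 9.44 and 11.9 CPM against 7.83 and 7.82 CPM (log2 −0.48, interval −1.12 to 0.15). Age-related oligodendrocytes, which held less Tcf7l2 than Oligo1, numbered 1 and 0 in wild-type gray matter libraries and 107 and 886 in white ones. Over 16 alternative fits, which include the sum without these cells and IROs, the Tcf7l2 log2 fold change ran from −0.70 to −0.33. The part of these cells in the tissue difference was not tested by itself.

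Of the 10 members, 0 were called in wild-type mice at an adjusted p under 0.05, where 1% of 13069 genes were called. DESeq2 called 0 as well, and 1, Tcf7l2, had an unadjusted p under 0.05 in edgeR. The libraries of the tissues did not overlap for 2 of 10 members, whereas 38.4% of all genes did not. The members other than Tcf7l2, Zfp488 and Olig2 had log2 fold changes between −0.11 and 0.03, with intervals reaching from −0.52 to 0.35. The study's list of animals names the same mice for the gray and the white matter library of a wild-type batch. With the pool as a block Tcf7l2 was called in wild-type mice, at −0.56 with an adjusted p of 3.44e-06 by the edgeR quasi-likelihood test. It was 1 of 10 members called in that fit, beside 10% of all genes, and the fit kept 1 residual degree of freedom.

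In Rag1-/- mice the comparison rests on the lone gray matter library, which is assumed to vary like the others. Tcf7l2 was at 68.7 CPM there and at 46.6, 35.4 and 32.6 CPM in white matter. The gray matter library was thus above each white matter library, with a log2 fold change of −0.83 (interval −1.29 to −0.37), 1.78-fold lower in white matter, at an adjusted p of 0.160 by edgeR. Olig2 was at 168 CPM in gray and 136, 115 and 137 CPM in white matter (log2 −0.35, interval −0.69 to −0.01, adjusted p 0.501 by edgeR). Zfp488 was at 11.7 against 8.31, 7.98 and 4.83 CPM, also without overlap (log2 −0.72, interval −1.40 to −0.04, adjusted p 0.486 by edgeR). In this comparison too 0 of 10 members were called, against 0.436% of all genes, 3 (Tcf7l2, Olig2 and Zfp488) had an unadjusted p under 0.05 and DESeq2 called 1, Tcf7l2 (adjusted p 0.0229), beside 1.84% of genes. With the block, only batch 1 sets white against gray matter in Rag1-/- mice, and the log2 fold change of Tcf7l2 was −0.57. That fit called Tcf7l2 and 5.26% of all genes, but it compares 1 gray with 1 white matter library and has no replication of its own in Rag1-/- mice. The gray matter library lay outside the white matter range for 6 of 10 members, against 61.3% of all genes, a share that 1 library against 3 makes common.

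Myrf and Sox10 went the other way in Rag1-/- mice but on that lone library. Myrf was at 254 CPM in gray and 255, 366 and 351 CPM in white matter, and Sox10 at 333 against 372, 400 and 385 CPM. For Myrf the white matter library of the same batch, at 255 CPM, was barely above the gray one, and only the 2 libraries of the other batch were far above it. The log2 fold change of Myrf was 0.37 (interval −0.11 to 0.86) and became −0.0068 with the pool as a block. Sox10 had 0.23 (interval −0.08 to 0.55). Neither was called by edgeR.

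**Figure D2:**
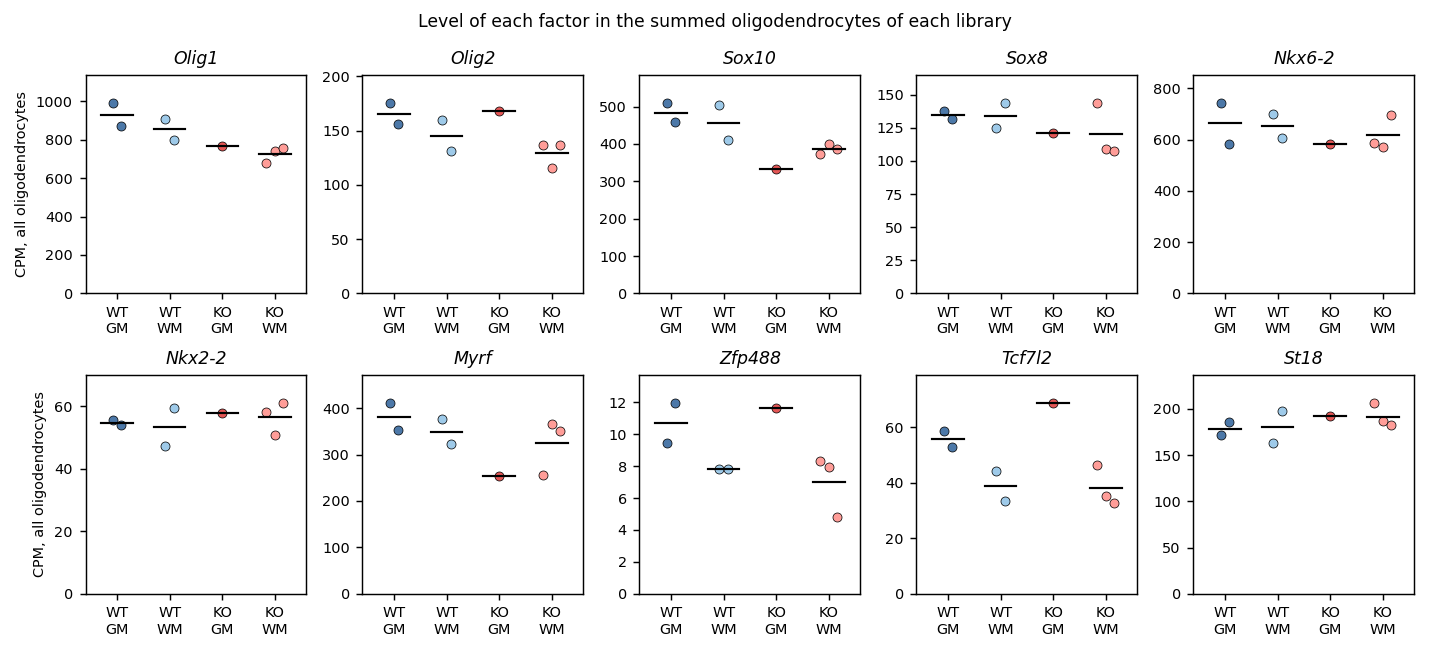
Level of each member in CPM in the summed oligodendrocytes of each library, with 1 point per library and the group mean as a line, for wild-type (WT) and Rag1-/- (KO) gray (GM) and white matter (WM). Tcf7l2 lies between 52.8 and 68.7 CPM in the 3 gray matter libraries and between 32.6 and 46.6 CPM in the 5 white matter libraries.

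The difference between tissues did not differ detectably between genotypes. For Tcf7l2 the tissue difference in Rag1-/- minus that in wild-type mice was −0.31 (interval −0.95 to 0.32), for Myrf 0.49 (−0.15 to 1.12) and for Sox10 0.30 (−0.11 to 0.71). Of 10 members 0 were called by edgeR, 0 had an unadjusted p under 0.05 and 0 were called by DESeq2. Across all genes 0% were called. In Oligo1 and Oligo2 0 members were called by edgeR or DESeq2 as well, with 0 at an unadjusted p under 0.05. There too edgeR called 0% of all genes, of 12258 in Oligo1 and 11716 in Oligo2.

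Summed astrocyte and neuron markers were higher in the oligodendrocytes of gray matter libraries. All 8 astrocyte markers were seen in each gray matter library, with a sum of 265 to 319 CPM in wild-type and 267 CPM in Rag1-/- mice. In white matter 6 to 8 of them were seen, at 115 CPM in both wild-type and 138 to 164 CPM in Rag1-/- libraries. Neuron markers summed to 12.97 to 16.5 CPM in gray and to 1.33 to 4.36 CPM in white matter. Microglial markers, all 8 seen in each library, ranged from 106 to 974.8 CPM in wild-type gray and from 79.2 to 605 CPM in wild-type white matter, and were at 322 CPM in Rag1-/- gray and 106 to 263 CPM in Rag1-/- white matter. Tcf7l2 is expressed in astrocyte-like and microglia-like cells, as given above, and the part of such RNA in its tissue difference was not tested.

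Within Oligo1, Tcf7l2 was lower in the white matter libraries without a call. It was at 58.9 and 53.6 CPM in wild-type gray and 51.8 and 38.4 CPM in wild-type white matter, and at 67.9 against 54.6, 37.5 and 37.1 CPM in Rag1-/- mice. In wild-type mice the log2 fold change was −0.33 (interval −0.81 to 0.15), and Rag1-/- mice had −0.65 (interval −1.15 to −0.14). In neither did edgeR call a member in Oligo1, where 0.114% and 0.139% of 12258 genes were called, nor did DESeq2, and the members with an unadjusted p under 0.05 numbered 0 and 1. With the pool as a block, edgeR called Tcf7l2 in wild-type Oligo1, at −0.38 with an adjusted p of 0.0367, beside 5.25% of all genes. In Rag1-/- Oligo1 the value with the block was −0.33 (adjusted p 0.331 by edgeR). Olig2 in Oligo1 was at 169 and 170 CPM in wild-type gray and 168 and 159 CPM in wild-type white matter, and at 178 against 167, 141 and 168 CPM in Rag1-/- mice. The make-up of Oligo1 differed by tissue. Oligo1b made up 73 of 200 and 438 of 740 cells in wild-type gray matter. In wild-type white matter it was 59 of 229 and 164 of 1817. In Rag1-/- mice it was 456 of 762 in gray and 173 of 1515, 187 of 915 and 330 of 1736 in white matter. Summed over all libraries, Oligo1b held 51.8 CPM of Tcf7l2, Oligo1a 44.1 and Oligo1c 43.3. Such sums also carry the tissue that the cells of a subcluster came from. As means over the 8 libraries, Oligo1a was at 53.7, Oligo1b at 52.5 and Oligo1c at 48.3 CPM. Oligo1a was above Oligo1b in 4 of 8 libraries. The part of this make-up in the tissue difference was not tested.

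Within Oligo2, Tcf7l2 passed the test in Rag1-/- mice. It was at 59.8 and 51.7 CPM in wild-type gray and 41.3 and 33.3 CPM in wild-type white matter, and at 70.5 against 43.2, 34.4 and 31.5 CPM in Rag1-/- mice. White matter was below gray matter without overlap in both genotypes. In all oligodendrocytes 38.4% of genes in wild-type and 61.3% in Rag1-/- mice did not overlap, and this share was not taken within Oligo2. In Rag1-/- mice Tcf7l2 fell by 0.94 on the log2 scale (interval −1.37 to −0.52, adjusted p 0.0495 by edgeR), 1.92-fold lower in white matter. It was the 1 of 10 members called there, beside 1.01% of 11716 genes, of which 0.495% were called lower. DESeq2 gave it an adjusted p of 0.0256, beside 1.38% of genes called. With the block the log2 fold change was −0.73, from 1 gray and 1 white matter library. The call sits at the threshold: leaving out any 1 of wild-type gray matter libraries 1 and 2, wild-type white matter libraries 1 and 2 or Rag1-/- white matter libraries 2 and 3 gave edgeR adjusted p-values of 0.0551 to 0.143, and without Rag1-/- white matter library 1 it was 0.0074, with log2 fold changes of −0.87 to −1.07. Rag1-/- white matter library 1 is the only white matter library of the batch of the gray one. Without it, tissue and batch cannot be told apart in Rag1-/- mice. In wild-type mice the log2 fold change was −0.58 (interval −1.0028 to −0.16, adjusted p 0.254 by edgeR).

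Olig2 and Zfp488 followed the same direction in Oligo2. Olig2 was at 179 and 132 CPM in wild-type gray and 107 and 84.6 CPM in white matter, and at 146 against 95.7, 86.7 and 108 CPM in Rag1-/- mice. Its log2 fold change was −0.67 in wild-type (interval −1.07 to −0.27) and −0.57 in Rag1-/- mice (−0.9975 to −0.15), at edgeR adjusted p-values of 0.139 and 0.296. Zfp488 was at 3.32 and 10.0 CPM against 2.17 and 2.32 CPM in wild-type mice and at 6.14 against 3.42, 2.33 and 1.18 CPM in Rag1-/- mice (log2 −1.79 and −1.43, edgeR adjusted p 0.252 and 0.477). Both were without overlap between tissues, which is common among all genes as given above, and neither was called. The wild-type value of Zfp488 rests on gray matter library 2, with 47 of its UMIs against 3 in gray matter library 1, and was −0.48 without library 2. In wild-type Oligo2 0 of 10 members were called against 1.24% of genes, 3 (Olig2, Zfp488 and Tcf7l2) had an unadjusted p under 0.05, and DESeq2 called 0. With the pool as a block, edgeR called these 3 in wild-type mice, with Olig2 at −0.66 (adjusted p 1.11e-06), Zfp488 at −1.92 (0.00172) and Tcf7l2 at −0.60 (0.00377), beside 6.03% of all genes and on 1 residual degree of freedom. In Rag1-/- mice the block gave −0.63 for Olig2 and −0.86 for Zfp488, and called Olig2 and Tcf7l2 beside 3.07% of genes, again without replication within that genotype.

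The make-up of Oligo2 moved with the tissue. Oligo2a and Oligo2c together made up 14.6% and 9.63% of Oligo2 cells in wild-type gray matter and 13.3% in Rag1-/- gray matter. In white matter they made up 62.8% and 56.2% in wild-type and 52.3%, 50.9% and 53.3% in Rag1-/- libraries. These are the subclusters with less Olig1, Olig2, Zfp488 and Tcf7l2, and levels within Oligo2b alone, a comparison added after the data were seen, were therefore set beside those of Oligo2. There the tissue difference in Rag1-/- mice was −0.67 for Tcf7l2 (adjusted p 0.451 by edgeR) and −0.42 for Olig2, and in wild-type mice −0.31 for Tcf7l2, −0.37 for Olig2 and −0.97 for Zfp488. Of the 10 members edgeR called 0 in Oligo2b in either genotype, where it called 0.154% of 11025 genes in wild-type and 0.372% in Rag1-/- mice. Tcf7l2 in Oligo2b was at 67.8 and 54.6 CPM in wild-type gray and 61.6 and 42.1 CPM in wild-type white matter. The tissues thus overlapped, although white was below gray matter within each batch. In Rag1-/- mice Tcf7l2 was at 70.8 CPM in gray against 54.6, 39.5 and 38.9 CPM in white matter, without overlap.

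**Figure D3:**
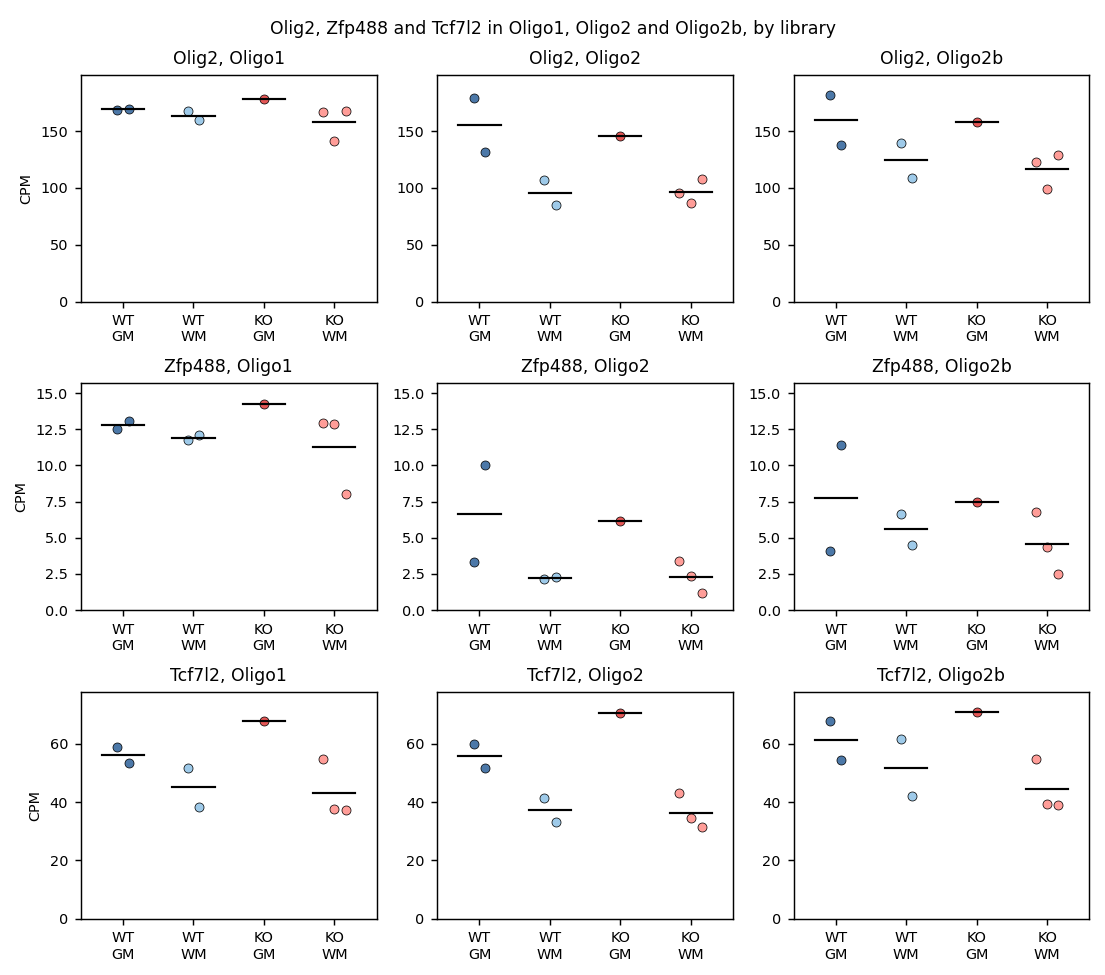
Olig2, Zfp488 and Tcf7l2 in CPM in Oligo1, Oligo2 and Oligo2b, with 1 point per library and the group mean as a line, for wild-type (WT) and Rag1-/- (KO) gray (GM) and white matter (WM). In Oligo2 the white matter libraries lie below the gray matter library or libraries of the same genotype for all 3 genes, and in Oligo2b wild-type Tcf7l2 overlaps between tissues.

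White matter of Rag1-/- and wild-type mice was compared last. Olig1 was at 680, 742 and 758 CPM in Rag1-/- and 910 and 798 CPM in wild-type white matter, and Sox10 at 372, 400 and 385 against 503 and 409 CPM. Neither overlapped, and the log2 fold changes were −0.16 (interval −0.40 to 0.07) for Olig1 and −0.17 (−0.41 to 0.07) for Sox10, at edgeR adjusted p-values of 0.755 and 0.747. The groups did not overlap for 2 of 10 members, against 27.5% of all genes. Of 10 members 0 were called by edgeR, where 0.888% of genes were, 0 had an unadjusted p under 0.05 and 0 were called by DESeq2. The log2 fold changes of the 10 ran from −0.17 to 0.14, and no interval went below −0.65 or above 0.45. Tcf7l2, at 46.6, 35.4 and 32.6 CPM in Rag1-/- and 44.3 and 33.5 CPM in wild-type white matter, overlapped.

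By cluster the genotypes also gave 0 called members. In Oligo1 and Oligo2, 0.718% and 0.879% of all genes were called and 0 of 10 members by edgeR or DESeq2, with 0 at an unadjusted p under 0.05. For age-related oligodendrocytes 0.99% of 10104 genes were called, and the members had log2 fold changes of −0.25 to 0.22. In IROs, where 8 of 10 members passed the filter on low counts and Zfp488 and Tcf7l2 did not, 0.821% of 5360 genes were called. Again 0 members were called in both, 0 at an unadjusted p under 0.05 and 0 by DESeq2.

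**Figure D4:**
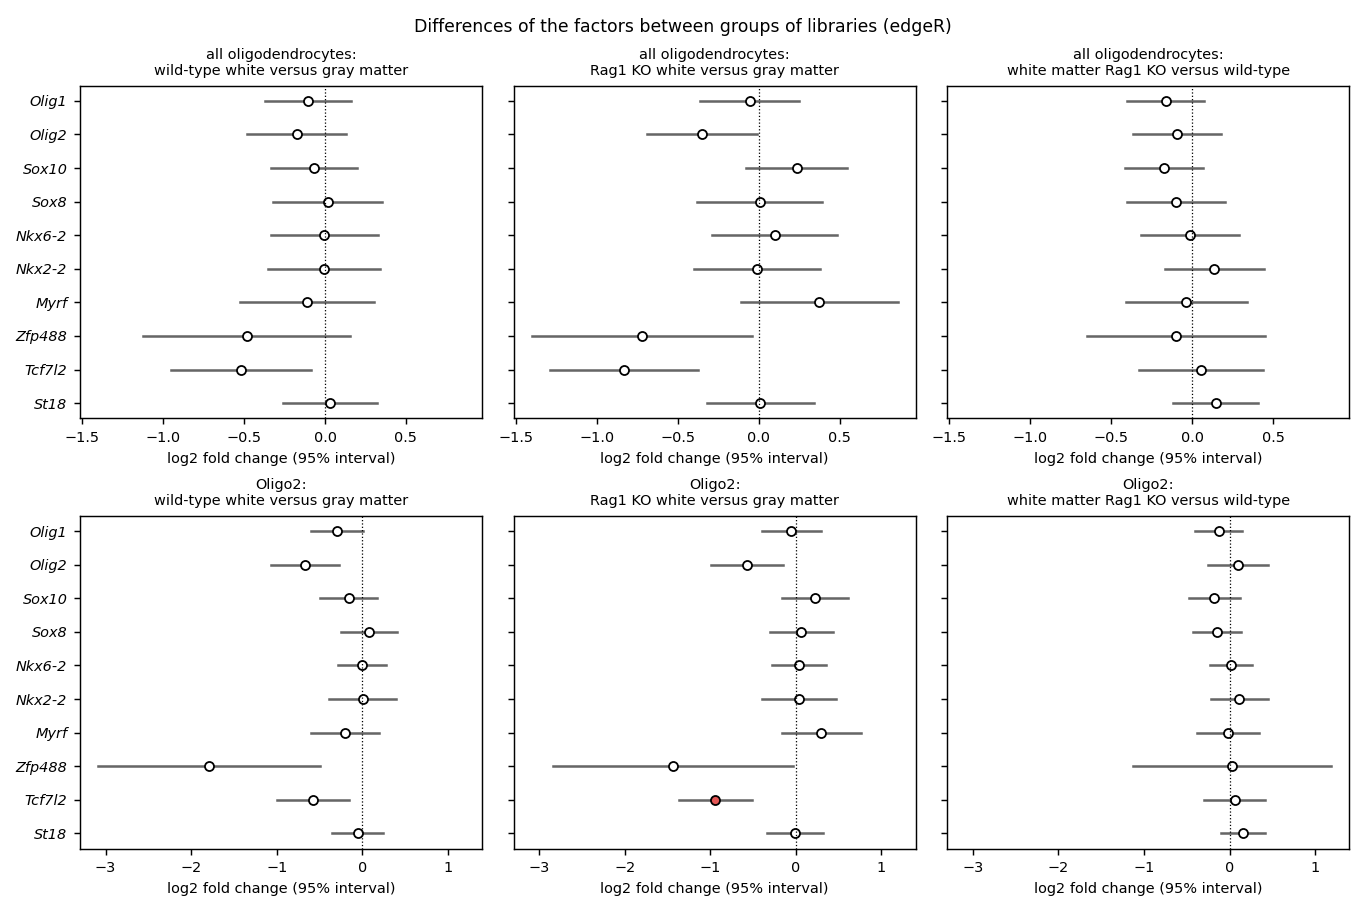
Log2 fold changes of the members between groups of libraries by edgeR, with 95% intervals, in all oligodendrocytes (top) and in Oligo2 (bottom). A filled point marks an adjusted p under 0.05, which only Tcf7l2 in Oligo2 of Rag1-/- mice reached, at −0.94.

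Genes that act with these factors or are their targets were taken from lists named for their function. Among 20 myelin genes, targets of Sox10 and Myrf, 1 was called higher in white than in gray matter of wild-type mice, where 1% of all genes were called in either direction: Trf, which encodes transferrin, at 4325 and 4509 CPM in gray and 6892 and 6696 CPM in white matter (log2 0.64, adjusted p 0.0326 by edgeR). Their median log2 fold change was 0.10, beside −0.01 for all genes. In Rag1-/- mice 0 of 20 were called between tissues, and Trf was at 5167 CPM in gray and 7400, 6884 and 7654 CPM in white matter, also without overlap. Between genotypes, where 0.888% of all genes were called, Cldn11, which encodes a tight junction protein of myelin, was lower in Rag1-/- white matter, at 2252, 2027 and 1836 CPM against 3604 and 3175 CPM (log2 −0.67, adjusted p 0.0210 by edgeR).

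Of 30 tested cofactors and other regulators, 1 was called between tissues in each genotype, beside 1% of all genes in wild-type and 0.436% in Rag1-/- mice. It was Nkx2-9, a homeodomain relative of Nkx2-2. Nkx2-9 was at 10.9 and 10.4 CPM in wild-type gray and 22.8 and 35.9 CPM in wild-type white matter, and at 11.5 CPM in Rag1-/- gray against 41.0, 45.6 and 46.9 CPM in Rag1-/- white matter. Each white matter library was above all gray matter libraries, with log2 fold changes of 1.52 in wild-type (adjusted p 0.0204 by edgeR) and 1.98 in Rag1-/- mice (adjusted p 0.0246). Nkx2-2 itself lay between 47.3 and 60.9 CPM in all 8 libraries, with the tissues overlapping. Of 15 tested regulators of the precursor stage 0 were called between tissues, and their most abundant members Sox2 and Id4, which keep cells undifferentiated, had log2 fold changes of −0.33 and −0.51 in wild-type mice. Astrocyte markers were higher in the oligodendrocytes of gray matter, as given above. The part of RNA from other cells in the values of Sox2 and Id4 was not tested. Of 10 tested markers of committed precursors 0 were called in all oligodendrocytes, with log2 values of −0.01 for Bcas1 and 0.66 for Enpp6 in wild-type mice. In wild-type Oligo2, where 1.24% of all genes were called, edgeR called Enpp6 higher in white matter (log2 0.84, adjusted p 0.0461). It also called Trf (0.61, adjusted p 0.0208) and Nkx2-9 (1.62, adjusted p 0.0014) higher there. How much of these calls comes from the larger share of Oligo2a and Oligo2c in white matter was not tested.

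Among 13 tested partners and targets of TCF factors in Wnt signaling, 0 were called between tissues in all oligodendrocytes. Apc, which promotes the breakdown of β-catenin, had a log2 fold change of 0.07 and Daam2, a Wnt pathway formin, of 0.06 in wild-type mice. In Oligo2 of wild-type mice, Tle1, a co-repressor that binds TCF factors, was lower in white matter (log2 −0.68, adjusted p 0.0362 by edgeR). It was at 85.2 and 86.2 CPM in gray and 52.7 and 53.2 CPM in white matter. That fit called 1.24% of all genes, and the part of the larger share of Oligo2a and Oligo2c was not tested here either. Between genotypes Apcdd1, a Wnt inhibitor, was called higher in Rag1-/- white matter on few counts, at 1.75, 4.77 and 3.08 CPM against 0 and 0.23 CPM (adjusted p 0.0462 by edgeR).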

How the data were processed

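Single-cell RNA-seq (10× Genomics) was measured in 8 libraries. The authors deposited raw UMI counts per gene and cell, made with Cell Ranger on build mm10 (the submitters' processing notes name version 4, while the study's methods give a different version for the wild-type libraries and for each Rag1-/- batch), and a table of oligodendrocytes with cluster names from their Seurat integration of the libraries. From these counts, sums per library and population were made and divided by their totals (CPM).

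Libraries, not cells, were the replicates. Sums were tested with edgeR 4.0.16 (R 4.3.3; quasi-likelihood, TMM, filterByExpr, 8 libraries in 4 groups, two-sided), with Benjamini-Hochberg adjustment over all genes tested and a threshold of 0.05. DESeq2 1.42.0, other filters, leaving out each library and a block for the mouse pool were alternatives. The edgeR step was tested on simulated counts. P-values measure the spread between libraries. By the study's list of animals, gray and white matter libraries with the same batch number came from the same mice, which the block uses. The deviations of the wild-type pairs correlated at 0.428, which is 1 value, since with 2 libraries per group both pairs give the same number. White matter libraries 1 and 2 of wild-type against those of Rag1-/- mice gave 0.069 and 0.144. Shared mice cannot be told apart from a shared batch in this value of 0.428. Rag1-/- white matter libraries 2 and 3 are both from batch 2.

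Clusters entered with at least 20 cells in a library, while precursors, the test of IROs and their points in the plot used at least 10. Doublets were not called, and 360 oligodendrocytes held at least 20000 UMIs. Members, lists and tests were chosen with earlier results of these data known. All 10 members were named throughout. Of each list, up to 4 called genes with the largest log2 fold change were named, or up to 2 with the highest mean CPM where 0 were called. For likeness, the 3 genes with the highest Pearson correlation of log2(CPM + 1) were taken and given for Olig2 and Tcf7l2. Intervals cover counting error for sums and 95% for fold changes.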

Additional observations from a re-analysis of the deposited data

How the results depend on the processing

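Of 138 member log2 fold changes tested, 1 passed the threshold, and 86 changed sign under at least 1 alternative, none of them that one. With the mouse pool as a block, edgeR called 1 member in all oligodendrocytes in each genotype between tissues, 1 in wild-type Oligo1, 3 in wild-type and 2 in Rag1-/- Oligo2, and Myrf in Rag1-/- mice turned from 0.37 to −0.0068. In wild-type mice the block called 10% of all genes in all oligodendrocytes, the same share as 1 of 10 members. It called 5.25% of all genes in wild-type Oligo1 and 6.03% in wild-type Oligo2. For Rag1-/- mice and for DESeq2 the shares of all genes are given with the calls above. The block leaves 1 residual degree of freedom. In Rag1-/- mice it compares 1 gray with 1 white matter library, so that its calls there have no replication. DESeq2 called 1 member in Rag1-/- mice between tissues. Leaving out 1 library gave 0 to 1 called members between tissues of Rag1-/- mice, both in all oligodendrocytes (1, Tcf7l2 at −0.98, without Rag1-/- white matter library 1) and in Oligo2. With Oligo2b cells only, an alternative chosen after seeing the data, 0 members were called in Rag1-/- Oligo2 and Olig1 turned from −0.05 to 0.074. Without Rag1-/- white matter library 1, tissue and batch cannot be told apart in those mice. The cause of these changes was not tested.

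Counts over all genes moved more. In all oligodendrocytes, genes called between tissues numbered 131 in wild-type and 57 in Rag1-/- mice, against 281 and 208 by DESeq2 and 1311 and 687 with the block. They numbered 60 in wild-type mice with only the groups compared and 74 without age-related oligodendrocytes and IROs, and 138 in Rag1-/- mice with no filter. Without 1 library they ranged from 0 to 140 and from 15 to 251. Between genotypes 116 became 195 by DESeq2 and 1113 with all genes of the joint table, and 0 for the interaction became 3 by DESeq2 and 37 with the block. In Oligo1, 14 and 17 became 72 and 50 by DESeq2, 644 and 350 with the block, and 5 in Rag1-/- mice with Oligo1c cells only, also added after seeing the data. In Oligo2, 145 and 118 became 707 and 360 with the block and 17 and 41 in Oligo2b.

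Precursor levels moved by less than 1 SD in 29 of 30 alternative values (the alternative that left out precursors in the oligodendrocyte table removed 0 cells and is not counted), Sox10 going from 441 to 463 CPM without cells with microglial UMIs. Precursors were not tested, since 1 residual degree of freedom was left, and the other fits listed for them were not run, and the lone Rag1-/- gray matter library cannot be left out of its comparison.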
